A study of Mus musculus with 13 samples.

Results

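The cytosolic ribosomal protein genes were followed in RNA sequencing of the mouse olfactory bulb, the first relay of smell in the brain, after exposure to fine particulate matter (PM2.5, the smaller inhalable part of airborne dust and soot). Members were chosen by gene symbol alone: every gene named Rpl or Rps followed by a number, with an optional a, x or l, together with Rpsa, Rplp0, Rplp1 and Rplp2. The rule found 81 of the 34745 genes of the deposited table, 49 of the large and 32 of the small ribosomal subunit, and used no measured value. The 13 libraries, 1 per sample, fall into 2 sets. In set 1, 3 samples came from mice given PM2.5 at 3 mg/kg, written with "/3 day" in the labels, and 4 came from untreated controls. In set 2, 3 samples came from mice given PM2.5 at 10 mg/kg, with the same "/3 day", and 3 from untreated controls. The labels give wild type C57BL/6 mice aged 7 to 8 weeks for every group. The route of exposure, what the sets stand for and whether samples were pooled are not stated in the labels. The questions were whether either dose changed these genes against the controls of its own set, and how far the 2 control groups differed.

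Cytosolic ribosomal proteins assemble with ribosomal RNA into the small subunit, which reads the messenger RNA, and the large subunit, which joins amino acids. Their messenger RNAs are short, abundant in most cells and usually begin with an uninterrupted run of pyrimidines (the 5′ terminal oligopyrimidine tract), through which the mTOR pathway adjusts their translation. In neurons they are also found in axons and dendrites. The genes are scattered over the genome, several carry small nucleolar RNAs in their introns, and most have processed pseudogenes, intronless copies that arose from reverse-transcribed messenger RNA.

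The members sit on 19 chromosomes, and 4 of them are X-linked (Rps4x, Rpl10, Rpl36a and Rpl39). In GENCODE M21, an annotation of the build named in the submitters' notes (mm10, the same assembly as GRCm38), all 81 identifiers were found and 57 had the coordinates of the deposited table. Of these genes, 29 host 56 small nucleolar RNA genes and 22 overlap a gene on the opposite strand. The libraries were made with a stranded total RNA kit, but the strand setting of the counting is not given, so reads of such overlapping pairs may not be told apart. Some members, such as Rpl24 and Rpl13a, also overlap a gene on the same strand.

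Total counts per library ran from 14336721 to 14665696 in low-dose and 13032834 to 14095284 in control libraries of set 1, and from 20227176 to 25548559 in high-dose and 15387870 to 26989267 in control libraries of set 2. All 10 listed olfactory bulb markers had counts, and they summed to 4453 to 5819 TMM-scaled CPM, counts scaled to a common library total. The series text gives male mice, but the X-inactivation transcript Xist stood at 0.0992 to 0.555 CPM in the set 2 libraries against 2245 to 2712 CPM in those of set 1, and 4 Y-linked genes summed to 177 to 230.0 CPM in set 2 against 0 to 0.2096 CPM in set 1. The set 1 libraries therefore go against the stated sex, and each dose was compared only within its set. In set 2, control replicate 2 and high-dose replicate 3 stood apart: they were the deepest libraries (26989267 and 25548559 counts) and genes with a reference transcript of up to 1000 bases took 3.34 and 3.26% of their counts, against 2.52 to 2.62% in the other 4 libraries of the set and 2.23 to 2.40% in set 1. Because these are bulk samples, fewer cells of a type and less RNA per cell cannot be told apart.

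The 81 genes together took a small part of the counts in every library. Their share was 0.445, 0.399 and 0.384% in the low-dose libraries, against 0.389, 0.377, 0.425 and 0.411% in the controls of set 1. It was 0.500, 0.512 and 0.660% in the high-dose libraries, against 0.472, 0.692 and 0.524% in the controls of set 2. At both doses the exposed and control shares overlapped, and every set 2 library lay above every set 1 library. The 2 deepest libraries of set 2 held the highest shares, 0.660% in high-dose replicate 3 and 0.692% in control replicate 2, while the other 4 ran from 0.472 to 0.524%. The balance between subunits was nearly fixed: large subunit genes made up 57.6 to 58.5% of the ribosomal protein counts in all 13 libraries.

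**Figure D1:**
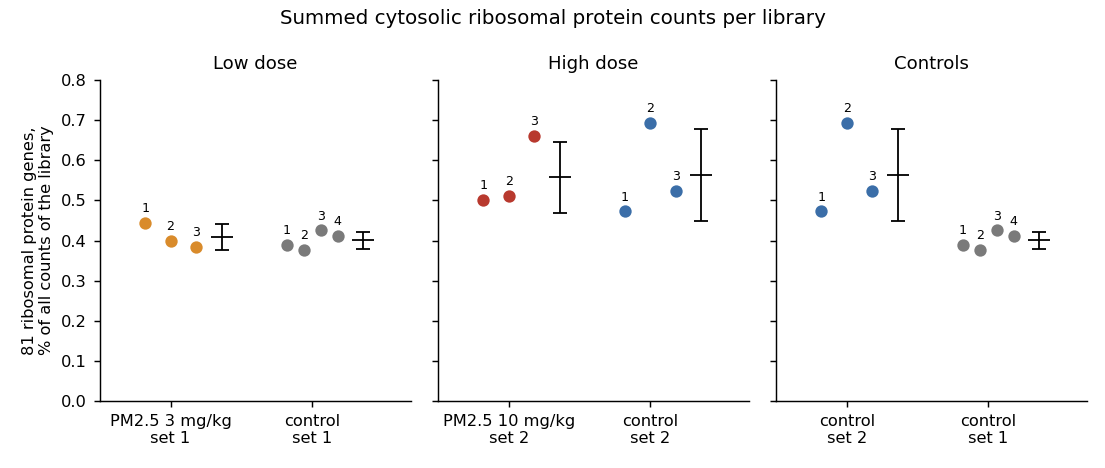
Share of each library's counts held by the 81 cytosolic ribosomal protein genes (vertical axis, percent), in 3 panels that set PM2.5-exposed beside control libraries and the 2 control groups beside each other. Points are libraries with their replicate number, bars to the right are the mean ± SD. Exposed and control libraries overlap at both doses, and the set 2 controls, at 0.472 to 0.692%, all lie above the set 1 controls, at 0.377 to 0.425%.

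Of the 81 members, 78 passed the filter on low counts, 46 of the large and all 32 of the small subunit. The 3 that did not were paralogs whose names end in l. Rpl10l, known as the testis form of Rpl10, had 0 counts in every library. Rpl39l, also known from testis, had 9 counts in all, and Rpl3l, the muscle form of Rpl3, had 56. Rpl3l stood at 0.401, 0.555 and 0.271 CPM in low-dose and 0.302, 0.211, 0.349 and 0.213 CPM in set 1 control libraries, and at 0.0496, 0.302 and 0 CPM in high-dose and 0.592, 0.271 and 0 CPM in set 2 control libraries. Its groups overlapped, and at these few counts no difference was detectable. The ubiquitous partners Rpl3, Rpl10 and Rpl39 were present at 107, 18.8 and 21.2 CPM.

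Mean levels of the 78 genes over all libraries spanned 1.43 CPM for Rps29 to 279 CPM for Rpl4. Divided by the length of a reference transcript, for a rough comparison between genes, they ran from 2.40 CPM per kilobase for Rps23 to 407 CPM per kilobase for Rplp1. The median was 46.3 CPM per kilobase. These ranks depend on the transcript taken, which for Rps20 has 3706 bases for a coding sequence of 357. Near-identical copies elsewhere in the genome, 11 for Rps23, may also take part of the reads. Rplp1 and Rplp2 encode the acidic stalk proteins of the large subunit and Rplp0 the base of that stalk. Rplp1 ranked first of all members per kilobase, against 152 CPM per kilobase for Rplp2 and 113 CPM per kilobase for Rplp0. Next to Rplp1 came Rps15, Rps14, Rpl8 and Rpl13a, at 309, 297, 250.2 and 224 CPM per kilobase. Rpsa, a small subunit protein that also serves as a laminin receptor, stood at 168 CPM per kilobase. Most cytosolic ribosomal proteins occur once per ribosome, whereas the acidic stalk proteins occur as dimers. Whether RNA levels follow these protein numbers was not tested. The highest members in the authors' FPKM included Rplp1, Rpl8, Rpl13a and Rpl4, and the 5 lowest were Rpl9, Rps13, Rps27, Rpl11 and Rpl12. The FPKM imply lengths of 10922, 8365 and 7188 bases for Rpl9, Rps13 and Rpl12, whose reference transcripts have 680, 589 and 1242. Such lengths lower the FPKM, so these ranks do not rest on counts alone.

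Most members had near-identical copies, those high in counts as well as those low. A copy was counted where another GENCODE gene matched at least 95% of bases over at least 80% of the member's coding sequence. This kept genes that overlap the member itself on the same strand, such as Gm28037 at Rpl24 and Gm45713 at Rpl13a. By that rule 71 of the 81 members had copies, 546 in all with a median of 5 per member and up to 57 for Rpl21. Rpsa, with 62463 counts, had 10. For 34 members at least 1 copy had a place in the table, and these 49 copies held 256686 counts, against 1118380 for the 81 members. For 13 members the copies held more counts than the gene itself. Rpl23a had 531 counts against 19101 for Rpl23a-ps3, Rps27 had 514 against 10744 for Rps27rt, Rpl9 had 926 against 13120 for Rpl9-ps6, and Rpl12 had 1837 against 26725 for Gm10275. The 10 members with no copy had a median of 18255 counts, against 5119.5 for the 42 members with 5 or more. How the counting treated reads that match several genes is not given in the sources used here, and its part in these levels was not tested.

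The coding sequences of Rpl5 and Gm15500, of Rpl12 and Gm10275, and of Rps27 and Rps27rt were identical, so their bases do not tell gene from copy. Elsewhere a single base is all that separates gene and copy. Below, 60 coding bases around such a difference are shown in capitals at the base that differs (GENCODE M21 transcripts, GRCm38, positions from 1 at the A of the start codon). Rpl9 on chromosome 5 and Rpl9-ps6 on chromosome 19 differ in 1 of 576 coding bases, G266A. Rpl23a on chromosome 11 and Rpl23a-ps3 on chromosome 14 differ in 1 of 468, A116T. Rps26 on chromosome 10 and Rps26-ps1 on chromosome 8 differ in this stretch by C30T.
Rpl9: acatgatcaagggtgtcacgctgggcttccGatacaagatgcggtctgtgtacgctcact
Rpl9-ps6: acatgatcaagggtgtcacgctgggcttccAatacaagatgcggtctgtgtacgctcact
Rpl23a: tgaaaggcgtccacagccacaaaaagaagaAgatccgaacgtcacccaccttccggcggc
Rpl23a-ps3: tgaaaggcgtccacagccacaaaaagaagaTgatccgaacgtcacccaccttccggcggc
Rps26: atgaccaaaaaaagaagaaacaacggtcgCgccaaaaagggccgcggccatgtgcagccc
Rps26-ps1: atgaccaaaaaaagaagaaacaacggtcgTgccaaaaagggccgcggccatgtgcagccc

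**Figure D2:**
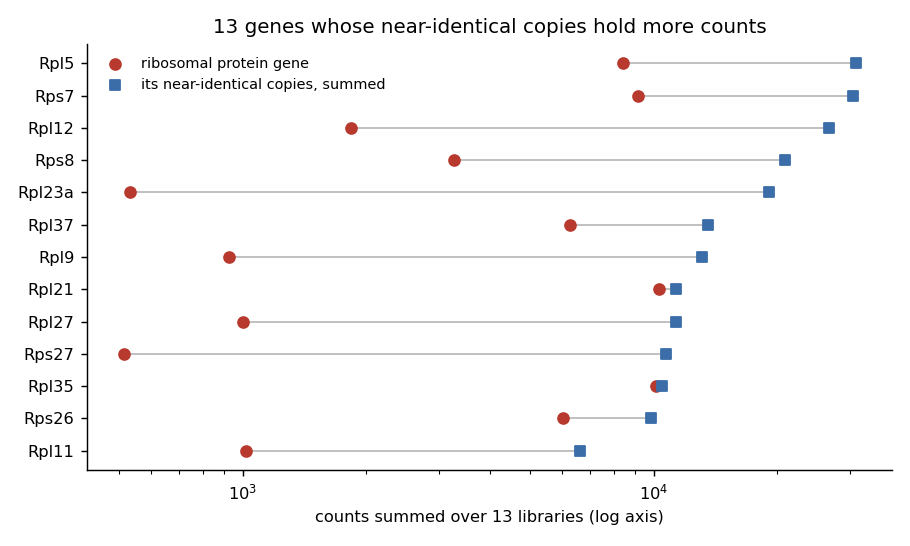
Counts summed over the 13 libraries (horizontal log axis) for the 13 ribosomal protein genes (circles) whose near-identical copies (squares, summed per gene) hold more counts. The gap is widest for Rpl23a, with 531 counts against 19101 in its copy, and nearly closed for Rpl35, with 10114 against 10449 in its copies.

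Promoter letters were read because the pyrimidine tract is a shared property that the choice by name did not use. RefSeq promoter sequences (GRCm38.p6) were matched for 60 members. An unbroken run of C or T of at least 8 bases, searched on the gene's strand from 40 bases before to 20 after the annotated start, was found in 58.3% of them against 27.2% of 27025 genes. CCGGAAG, the core bound by ETS factors, was found on either strand within 250 bases before to 50 after the start in 41.7% against 9.93% of genes. AAGATGGC, the core of the YY1 motif, was found in the same window in 8.33% of members against 3.19% of genes, and TATAAA, the TATA box, in 10% against 15.7%. These are letter matches in a window and not measured binding sites. Windows of 60 bases are printed for the 5 genes with a promoter entry among the 6 with the smallest p between the control groups, with the longest C/T run in capitals: Rps7 (chr12:28635934-28635993, minus strand), Rpl10 (chrX:74270776-74270835, plus strand), Rps26 (chr10:128626487-128626546, minus strand), Rps15a (chr7:118116128-118116187, minus strand) and Rpl14 (chr9:120571477-120571536, plus strand). The run was longest in Rpl14, at 14 bases, and shortest in Rpl10, at 6. Counted from the annotated start, its first base lay at -29 in Rps7, -36 in Rpl10 and -15 in Rps15a, where the run ended before the start. It lay at 4 in Rps26 and -8 in Rpl14, and only the run of Rpl14 crossed the start. Whether any of these runs is a 5′ terminal tract of the messenger RNA was not tested.
Rps7: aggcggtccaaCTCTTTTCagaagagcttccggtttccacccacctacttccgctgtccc
Rpl10: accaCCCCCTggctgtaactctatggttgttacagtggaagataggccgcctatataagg
Rps26: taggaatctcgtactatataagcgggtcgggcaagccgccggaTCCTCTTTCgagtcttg
Rps15a: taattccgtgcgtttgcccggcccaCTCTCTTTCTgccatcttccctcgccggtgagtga
Rpl14: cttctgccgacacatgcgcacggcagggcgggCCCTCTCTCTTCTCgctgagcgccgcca

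At the low dose no cytosolic ribosomal protein gene passed the test. In the comparison of low-dose libraries with the controls of set 1, edgeR's quasi-likelihood test with Benjamini-Hochberg adjustment called 0 of 78 members, and 0% of the 17467 genes tested. No member had an unadjusted p under 0.05, which 1.31% of all genes reached as higher and 1.15% as lower, and DESeq2 also called 0 members. Log2 fold changes ran from -0.41 for Rps27 to 0.60 for Rpl9 around a median of 0.03, beside 0.0024 for all genes. They were positive for 54 members, where 50.9% of all genes were, and negative for 24; without low-dose replicate 1 the median was -0.03. The median was 0.03 over the large and 0.02 over the small subunit. The 95% interval of the fold change lay within 1.5-fold in either direction for 60 of the 78 genes and within 2-fold for 75.

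The smallest p belonged to Rpl23, a large subunit gene, at 6.28, 6.45 and 6.16 CPM in low-dose and 7.56, 6.33, 7.68 and 8.504 CPM in set 1 control libraries, with a log2 fold change (± SE) of -0.26 ± 0.15 (adjusted p = 1 by edgeR). Its low-dose values sat together at the bottom of the control range, and control replicate 2 lay among them. Rps13, a small subunit gene, was the only member whose groups did not overlap, at 4.21, 4.51 and 4.403 CPM in low-dose and 4.91, 4.93, 5.73 and 5.17 CPM in set 1 control libraries (-0.25 ± 0.17, adjusted p = 1, edgeR). For comparison, 2.91% of all genes lay below and 3.71% above the controls without overlap. Rps27, with the lowest fold change, stood at 2.14, 1.94 and 1.69 CPM in low-dose and 2.42, 1.83, 3.28 and 2.69 CPM in set 1 control libraries (-0.41 ± 0.29), and its groups overlapped; the value was -0.26 without control replicate 3.

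On the positive side the smallest p values belonged to Rpl13, Rpl9 and Rps6. Rpl13 had 8.49, 9.505 and 10.9 CPM in low-dose and 10.2, 7.599, 8.52 and 6.94 CPM in set 1 control libraries (0.21 ± 0.19, adjusted p = 1, edgeR). Rpl9, whose copy holds most of the shared sequence's counts, had 3.34, 8.26 and 5.83 CPM in low-dose and 0.529, 3.03, 3.42 and 8.22 CPM in set 1 control libraries (0.60 ± 0.54), and control replicate 1 was far below the rest. Its value ran from 0.25 without control replicate 1 to 1.31 without control replicate 4. Rps6, the ribosomal protein phosphorylated by S6 kinase downstream of mTOR, had 3.47, 5.13 and 3.59 CPM in low-dose and 3.48, 2.74, 1.89 and 5.03 CPM in set 1 control libraries (0.31 ± 0.29). That value ran from 0.10 without low-dose replicate 2 to 0.59 without control replicate 4, and that of Rpl13 from 0.10 without low-dose replicate 3 to 0.32 without control replicate 1. The groups overlapped in all 3 genes. Abundant members had small differences. Rpl4, the member with the most counts, had 246, 242 and 236 CPM in low-dose and 222, 222, 241 and 232 CPM in set 1 control libraries (0.07 ± 0.12). Rpsa had 257, 244 and 221 CPM in low-dose and 221, 208, 246 and 218 CPM in set 1 control libraries (0.11 ± 0.12). Olfactory bulb markers (10 of 10 listed) summed to 4999 to 5190.3 CPM in low-dose and 4512 to 4994 CPM in set 1 control libraries and neutrophil markers (6 of 6) to 2.64 to 4.14 CPM in low-dose and 1.47 to 2.55 CPM in set 1 control libraries, both without overlap. Their part in the members' values was not tested.

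At the high dose, too, no member passed the test. High-dose libraries against the controls of set 2 gave 0 of 78 members called by edgeR in either direction, where 0.521% of all genes tested were called higher (91 genes) and 0.12% lower (21 genes). No member reached an unadjusted p under 0.05, beside 5.75% of all genes as higher and 3.89% as lower, and DESeq2 called 0 members. Log2 fold changes ran from -0.31 for Rpl39 to 0.35 for Rps27a, with 21 positive, where 47.2% of all genes were, and 57 negative. Their median was -0.05, beside -0.01 for all genes. Its sign rested on single libraries: it was -0.18 without high-dose replicate 3, 0.12 without control replicate 2, 0.01 without high-dose replicate 1 and 0.0033 without high-dose replicate 2. The 95% interval lay within 1.5-fold for 52 members and within 2-fold for 76, and all 78 members overlapped between groups (6.08% of all genes lay above and 4.36% below).

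The smallest p belonged to Rpl35a, a large subunit gene mutated in some patients with Diamond-Blackfan anaemia, at 18.1, 16.9 and 22.4 CPM in high-dose and 18.3, 25.1 and 27.3 CPM in set 2 control libraries (-0.30 ± 0.16, adjusted p = 0.588 by edgeR). Rps27a, which encodes ubiquitin fused to a small subunit protein, had 19.5, 15.4 and 22.2 CPM in high-dose and 17.96, 14.99 and 11.7 CPM in set 2 control libraries (0.35 ± 0.19, adjusted p = 0.591, edgeR). In both genes a high-dose library fell inside the control range. Rps15a had 125, 128 and 133 CPM in high-dose and 130.4, 155 and 144 CPM in set 2 control libraries (-0.15 ± 0.09, adjusted p = 0.634, edgeR), with the highest exposed value just above the lowest control. Rpl5, a 5S ribosomal RNA partner that can bind Mdm2, had 35.03, 36.03 and 38.2 CPM in high-dose and 36.96, 48.2 and 39.1 CPM in set 2 control libraries (-0.19 ± 0.13); high-dose replicate 3 lay above control replicate 1. Rpl18 had 32.5, 27.4 and 35.7 CPM in high-dose and 23.7, 34.9 and 21.7 CPM in set 2 control libraries (0.25 ± 0.17). Rps3, which also takes part in DNA repair, had 169, 169 and 234 CPM in high-dose and 163, 189 and 172 CPM in set 2 control libraries (0.13 ± 0.11). Groups overlapped for both, and without high-dose replicate 3 the value of Rps3 was -0.03. Leaving out single libraries of set 2 moved Rpl35a between -0.44 and -0.19, Rps27a between 0.21 and 0.52, Rpl5 between -0.25 and -0.08 and Rpl18 between 0.12 and 0.47.

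Rps6 stood at 5.16, 5.23 and 6.99 CPM in high-dose and 4.604, 6.42 and 7.47 CPM in set 2 control libraries (-0.09 ± 0.29). Rplp0 stood at 157, 180.2 and 214 CPM in high-dose and 135, 215 and 157 CPM in set 2 control libraries (0.12 ± 0.15). The groups overlapped in both genes. Values within each group of set 2 followed the library. The highest of the 3 high-dose values was in replicate 3 for 71 of the 78 genes, and the highest of the 3 control values was in replicate 2 for 63. The same was not counted for other genes. Other short protein-coding genes also took more of the counts in these libraries (3.26 and 3.34%), so the pattern may not be particular to the members. Neutrophil markers (6 of 6 listed, none at 0 in all libraries) summed to 6.15 to 11.5 CPM in high-dose and 0.921 to 2.32 CPM in set 2 control libraries, and astrocyte markers (5 of 5) to 1663 to 1833 CPM in high-dose and 1134 to 1407 CPM in set 2 control libraries. Microglia markers (6 of 6) summed to 242 to 283 CPM in high-dose and 209.7 to 240.3 CPM in set 2 control libraries, and olfactory bulb markers (10 of 10) to 4453 to 5007 CPM in high-dose and 5175 to 5819 CPM in set 2 control libraries. The other 7 of 11 marker lists overlapped; the part of these cell types in the values of the ribosomal protein genes was not tested. The response at the high dose minus that at the low dose was called for 0 of 78 members and for 0.00573% of all genes (1 gene), with no member at an unadjusted p under 0.05 in edgeR, which 3.68% of all genes reached as higher and 2.31% as lower. The median difference was -0.07, with 25 members positive, where 48.1% of all genes were.

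**Figure D3:**
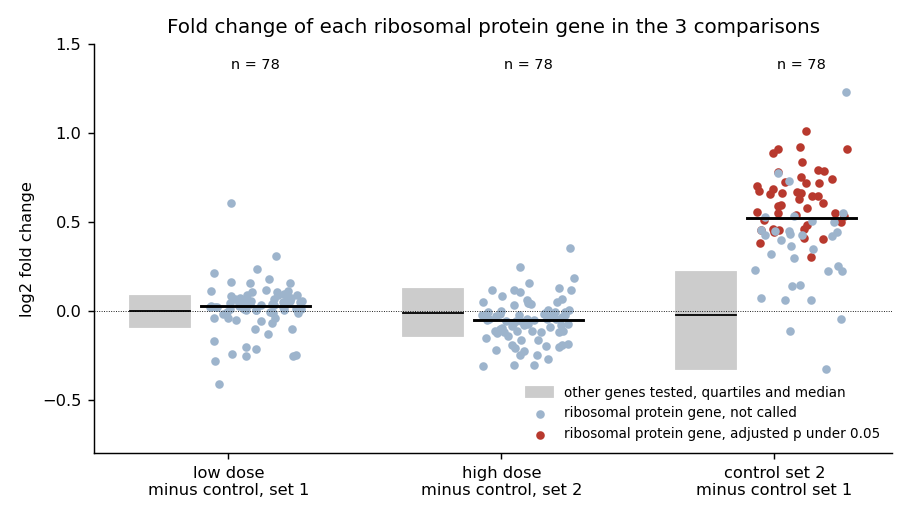
Log2 fold change (vertical axis) of each of the 78 ribosomal protein genes tested, in the 2 PM2.5 comparisons and between the control groups; grey boxes give the quartiles and median of the other genes tested, black lines the members' medians. Members gather around 0.03 at the low and -0.05 at the high dose with none called, and around 0.52 between control groups, where the 45 red points were called.

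Between the 2 control groups the ribosomal protein genes differed widely, with set 2 above set 1. Of 78 members 45 were called higher in the set 2 controls and 0 lower, 57.7% of the members beside 10.5% of all genes called higher (1837) and 8.74% lower (1527). At an unadjusted p under 0.05 there were 61 members higher and 0 lower, where 18.5% of all genes were higher and 17.2% lower. Log2 fold changes were positive for 75 members, where 48% of all genes were, with a median of 0.52, a 1.44-fold level, beside -0.02 for all genes. With library totals in place of TMM factors 36 members were called higher and 0 lower, while the calls over all genes turned to 1354 higher and 1870 lower. The called members ranged from 0.31 for Rpl22 to 1.01 for Rps26. Both subunits took part: 27 of 46 large subunit genes with a median of 0.53, and 18 of 32 small subunit genes with a median of 0.51. In 50 members every set 2 control lay above every set 1 control, against 15.8% of all genes, and 1 member, Rps13, lay below, against 14.6%. Calls were frequent where counts were high, at 27 of the 32 members above 50 CPM, 16 of the 27 from 10 to 50 CPM and 2 of the 19 under 10 CPM, whose medians were 0.54, 0.63 and 0.43. Sex, sequencing depth and whatever else separates the sets cannot be told apart here.

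Rpl21, a large subunit gene (chr5:146832890-146837032, plus strand, mm10), had the smallest p, at 52.6, 54.4 and 62.9 CPM in set 2 controls and 36.4, 33.6, 37.8 and 35.3 CPM in set 1 controls (log2 fold change 0.66 ± 0.10, adjusted p = 0.00118 by edgeR). Rps7 (chr12:28630847-28635953, minus strand), a small subunit gene whose product can also bind Mdm2, had 43.9, 64.04 and 46.8 CPM in set 2 controls and 26.2, 26.4, 31.7 and 27.2 CPM in set 1 controls (0.89 ± 0.15, adjusted p = 0.00192, edgeR). Rps26 (chr10:128624530-128626506, minus strand), which sits at the messenger RNA exit of the small subunit, had 25.7, 41.8 and 33.8 CPM in set 2 controls and 17.7, 17.03, 19.1 and 13.2 CPM in set 1 controls (1.01 ± 0.18, adjusted p = 0.00267, edgeR). In all 3 genes the lowest set 2 control lay above the highest of set 1.

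Rpl10 (chrX:74270812-74273135, plus strand), the X-linked protein near the peptidyl transferase centre, had 25.1, 23.8 and 21.04 CPM in set 2 controls and 14.6, 13.3, 14.9 and 15.6 CPM in set 1 controls (0.68 ± 0.11, adjusted p = 0.00233, edgeR), with the deepest library not the highest. Rps15a (chr7:118104372-118116188, minus strand) had 130.4, 155 and 144 CPM in set 2 controls and 93.6, 103, 109 and 112 CPM in set 1 controls (0.45 ± 0.08, adjusted p = 0.00282, edgeR). Rpl14 (chr9:120571517-120574653, plus strand) had 56.8, 88.8 and 65.5 CPM in set 2 controls and 38.5, 44.9, 46.5 and 43.7 CPM in set 1 controls (0.70 ± 0.14, adjusted p = 0.00594, edgeR). None of the groups overlapped for these genes. Rpl10, Rps15a, Rpl14, Rpl21, Rps7 and Rps26 were among 19 members called higher in all 26 fits tried, the alternatives included; the others included Rpl4, Rpl13a, Rpl29, Rpl30, Rpl31, Rpl35a, Rplp1, Rps3, Rps14, Rps24, Rps25 and Rps28.

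All 3 stalk genes had positive values. Rplp1 averaged 264 ± 72.7 CPM in set 2 controls and 153 ± 11.02 CPM in set 1 controls (SD, n = 3 and 4), a log2 fold change of 0.78 ± 0.17 (adjusted p = 0.00786 by edgeR). Rplp2 averaged 77.4 ± 15.05 CPM in set 2 controls and 52.95 ± 4.37 CPM in set 1 controls (0.55 ± 0.14, adjusted p = 0.0181, edgeR), and was not called without set 1 control replicate 2 (0.50, adjusted p = 0.0531) or set 2 control replicate 2 (0.41, adjusted p = 0.0821). Rplp0, at 169 ± 41.4 CPM in set 2 controls and 133 ± 6.67 CPM in set 1 controls, did not pass (0.35 ± 0.14, adjusted p = 0.0841, edgeR), but did without set 2 control replicate 1 (0.46, adjusted p = 0.0197). Their differences from each other were not tested. Rpsa averaged 318 ± 67.5 CPM in set 2 controls and 223 ± 16.2 CPM in set 1 controls (0.51 ± 0.12, adjusted p = 0.012, edgeR), and the call was lost without set 2 control replicate 2 (0.34, adjusted p = 0.0516). Rps6 had 4.604, 6.42 and 7.47 CPM in set 2 controls and 3.48, 2.74, 1.89 and 5.03 CPM in set 1 controls, with overlap (0.91 ± 0.28, adjusted p = 0.0358, edgeR), and lost its call without set 1 control replicate 1, 2 or 3 or set 2 control replicate 2 or 3, at 0.72 to 0.94.

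Of the 4 X-linked members, 3 were called higher, beside 57.7% of all members and 10.5% of all genes. Rpl39 had 23.3, 40.8 and 23.2 CPM in set 2 controls and 13.98, 16.5, 17.9 and 19.5 CPM in set 1 controls (0.78 ± 0.20, adjusted p = 0.0182, edgeR), with replicate 2 at the top. Rps4x, the X-linked form of S4, had 143, 219 and 159 CPM in set 2 controls and 118, 129.8, 129 and 135 CPM in set 1 controls (0.44 ± 0.13, adjusted p = 0.0339, edgeR), and without set 2 control replicate 2 its value was 0.25 and was not called (adjusted p = 0.182, edgeR); leaving out any 1 of the 4 set 1 controls also ended the call, at 0.40 to 0.47. Rpl39 was not called without set 2 control replicate 2 (0.46, adjusted p = 0.0962, edgeR) or set 1 control replicate 1 (0.70, adjusted p = 0.0537, edgeR). Rpl36a, at 3.16, 6.03 and 3.76 CPM in set 2 controls and 3.33, 4.43, 4.19 and 3.897 CPM in set 1 controls, overlapped (0.14 ± 0.25), and its sign turned without set 2 control replicate 2, at -0.19. Among the paralogs, Rps27l had 10.9, 16.2 and 11.8 CPM in set 2 controls and 8.99, 7.95, 8.802 and 8.86 CPM in set 1 controls (0.59 ± 0.17, adjusted p = 0.0243, edgeR), a call lost without set 2 control replicate 2 (0.40), set 1 control replicate 1 (0.61) or set 1 control replicate 2 (0.55). Rps4l, annotated as a transcribed processed pseudogene, had 11.9, 14.6 and 10.2 CPM in set 2 controls and 8.09, 9.43, 10.97 and 7.299 CPM in set 1 controls (0.46 ± 0.21, adjusted p = 0.13, edgeR).

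Among the members that were not called, Rpl24 had the highest fold change of all (1.23 ± 0.43, adjusted p = 0.0675, edgeR), at 31.1, 55.8 and 32.2 CPM in set 2 controls and 12.1, 8.51, 31.02 and 16.2 CPM in set 1 controls; it was singled out after its values were seen. The highest set 1 control lay just below the lowest of set 2. Gm28037, a processed transcript that overlaps Rpl24 on the same strand, holds a stretch identical to 83.7% of the coding sequence of Rpl24. The part of this overlap in the counts of Rpl24 was not tested. Values were negative for 3 members. Rps13 had 4.41, 4.64 and 3.33 CPM in set 2 controls and 4.91, 4.93, 5.73 and 5.17 CPM in set 1 controls (-0.32 ± 0.17, adjusted p = 0.175, edgeR). Rps27 had 1.58, 2.09 and 3.46 CPM in set 2 controls and 2.42, 1.83, 3.28 and 2.69 CPM in set 1 controls (-0.11 ± 0.28). Rpl28 had 8.22, 9.74 and 3.39 CPM in set 2 controls and 7.56, 8.23, 7.54 and 6.24 CPM in set 1 controls (-0.04 ± 0.26). Rps27 and Rpl28 overlapped, and leaving out single libraries turned the sign of each.

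**Figure D4:**
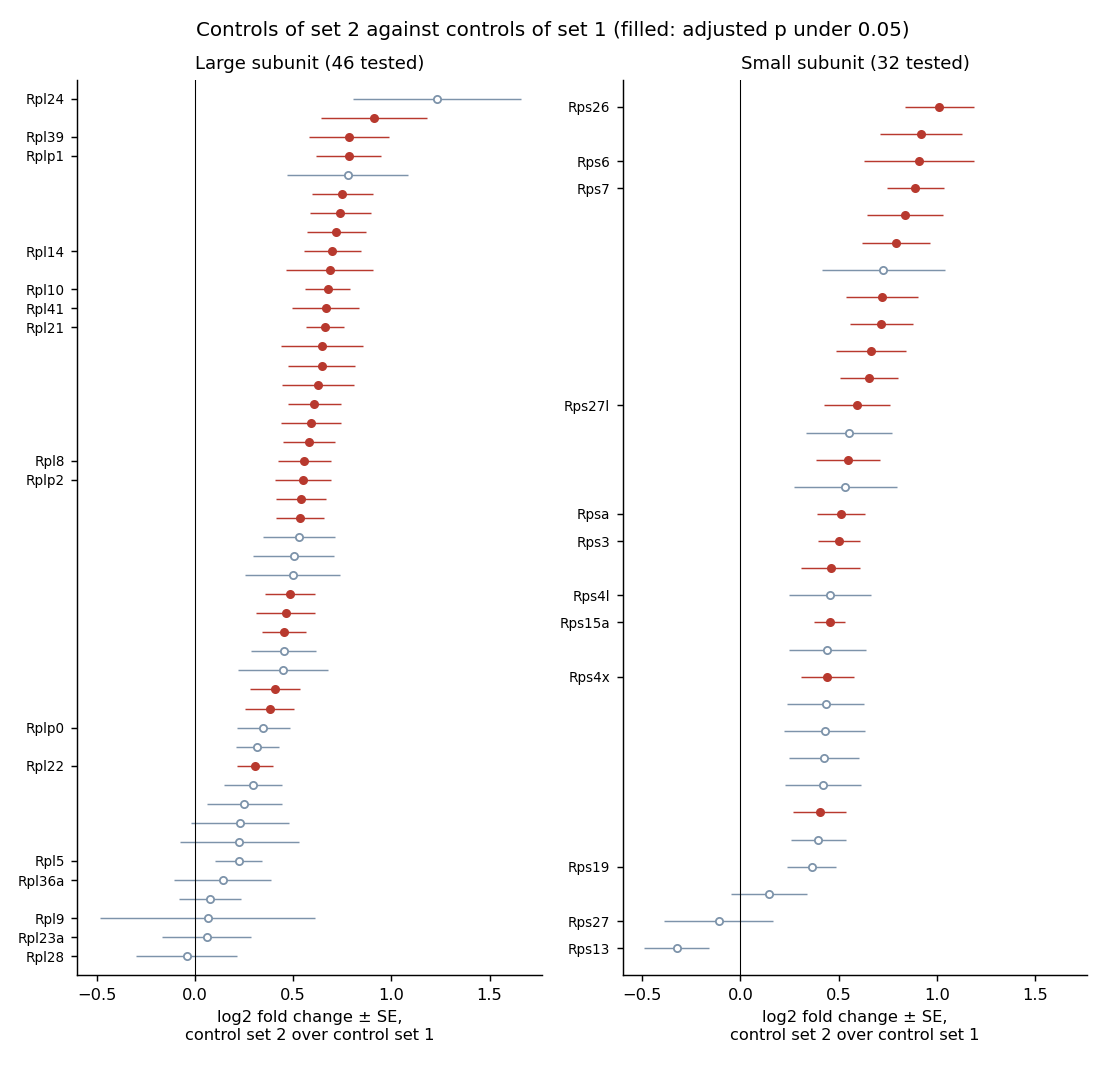
Log2 fold change of each tested ribosomal protein gene between set 2 controls and set 1 controls (horizontal axis, ± SE), large subunit left and small subunit right; filled red points were called by edgeR, and names are given for genes whose control values are described. Values run from -0.32 for Rps13 to 1.23 for Rpl24, and the 45 called genes lie between 0.31 and 1.01.

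The control difference moved with library and transcript length. Without set 2 control replicate 2, the deepest library, 19 members were called higher instead of 45 and the median was 0.37, while the genes called higher over the whole table numbered 713 instead of 1837. Without set 1 control replicate 2 these counts were 27 members and 1140 genes. With control replicate 2 and high-dose replicate 3 of set 2 both left out, they were 31 members, with a median of 0.38, and 1297 genes. Calls thus became fewer over all genes as well as among the members. Short genes as a whole were higher in set 2: among other protein-coding genes the median log2 fold change was 0.41 for reference transcripts up to 500 bases (27.9% called higher), 0.31 from 500 to 1000 bases (23.3%), 0.12 from 1500 to 2000 bases (16%) and -0.13 above 5000 bases (3.28%). The members in the first 2 of these bins had medians of 0.55 and 0.55, with 9 of 15 and 28 of 47 called. When each library's trend with transcript length, estimated on genes other than the members, was added to the fit as an offset, 29 members were called higher, all of them among the 45, the median was 0.32, and Rps13 was called lower (-0.58, adjusted p = 0.0298, edgeR). Over all genes the same offset gave 2153 called higher and 1326 lower, against 1837 and 1527 without it. The bins and the offset both used reference transcripts, which may be longer than the messenger RNAs present for some members, such as Rps24 and Rpsa. The calls left after the offset therefore depend on that choice of transcript. What produced the trend with length was not tested.

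**Figure D5:**
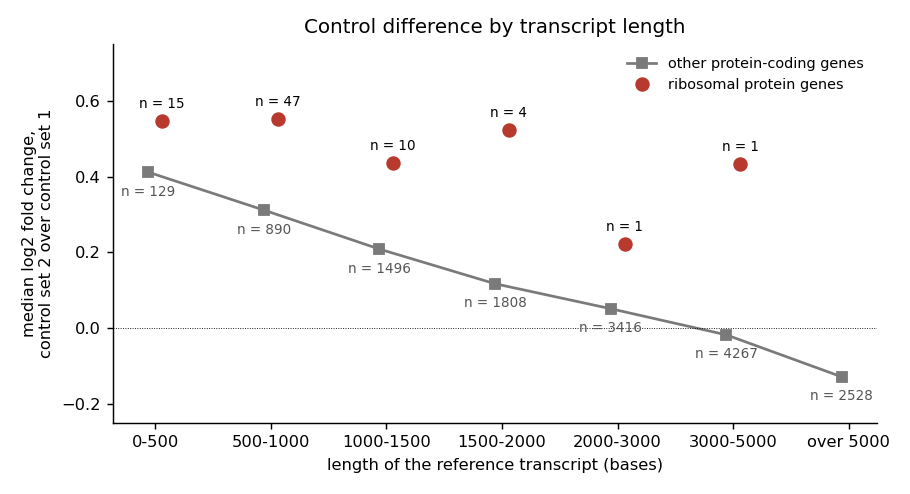
Median log2 fold change of set 2 controls over set 1 controls (vertical axis) by length of the reference transcript (horizontal axis, bases), for ribosomal protein genes (circles, number of members above) and other protein-coding genes (squares, number of genes below). The other genes fall from 0.41 in the shortest to -0.13 in the longest bin, and the members lie above them in each bin that holds any. The bins from 2000 to 3000 and from 3000 to 5000 bases hold 1 member each, Rpl5 and Rps20. Their reference transcripts of 2045 and 3706 bases hold coding sequences of only 891 and 357, so an excess at long transcripts cannot be read from them. The same limit holds in part from 1500 to 2000 bases. Rps24, Rpsa and Rps3 lie there with 1613, 1599 and 1908 bases, for coding sequences of 399, 885 and 729. Which transcripts were present was not measured, so some members may belong in shorter bins.

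Gene and near-identical copy did not always carry the same values between the control groups. Rpl9-ps6 averaged 75.2 ± 16.7 CPM in set 2 and 39.2 ± 4.32 CPM in set 1 controls (SD, n = 3 and 4; 0.94 ± 0.14, adjusted p = 0.00147 by edgeR), while Rpl9 stood at 0.06. Rps27rt gave 0.61 ± 0.19 (adjusted p = 0.0343, edgeR) beside -0.11 for Rps27, Rpl23a-ps3 gave 0.64 ± 0.19 (adjusted p = 0.0348, edgeR) beside 0.06 for Rpl23a, and Gm15500 gave 0.64 ± 0.11 (adjusted p = 0.00267, edgeR) beside 0.22 for Rpl5. For Rpl21 and Rps26 the order was the other way, with 0.24 ± 0.10 for BC004004 and 0.49 ± 0.20 for Rps26-ps1, neither called. The differences between gene and copy were not tested. Of the 28 copies that passed the filter, 14 were called higher (10.5% of all genes were) and 0 lower, with a median of 0.60, and 0 were called at either dose. Wdr89, a protein-coding gene, is counted among them because it holds a stretch 99.4% identical to the coding sequence of Rplp2. Gm28037 and Gm45713, which overlap Rpl24 and Rpl13a, are counted among them too.

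With the counts of each member and its copies summed before the fit, 53 of 78 sums were called higher, 44 of them members called before, with a median of 0.54. Rpl9 with its copies then gave 0.88 (adjusted p = 0.00204, edgeR), Rpl11 gave 0.62 (adjusted p = 0.0212), Rpl12 gave 0.69 (adjusted p = 0.00493) and Rps27 gave 0.57 (adjusted p = 0.0401). Counted alone, none of these 4 genes was called by edgeR with all libraries; Rpl12 alone was called by DESeq2's Wald test (0.46, adjusted p = 0.0475) and by edgeR without set 2 control replicate 1 (0.53, adjusted p = 0.0467). No sum was called at either dose, where the medians were 0.03 and -0.05. Of the 8 tested members with no near-identical copy, 6 were called higher between control groups, beside 57.7% of all members and 10.5% of all genes. Among the 6 were Rps3 (0.50), Rpl8 (0.56), Rpl41 (0.67) and Rps27l (0.59). Rps19 (0.36) and Rps4l (0.46) were not called.

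Other genes of the ribosome and of translation were set beside the members. At both doses 0 genes of every list were called. The share of all genes tested that was called higher between the control groups was 10.5%, and only the list of mTOR signalling lay below it, at 5.56%. The lists were not matched for transcript length. Between the control groups, 6 of 7 further cytosolic ribosomal genes whose symbols fall outside the rule were called higher in set 2 (median 0.55), led by Fau, whose product carries small subunit protein S30 (0.80 ± 0.14, adjusted p = 0.00267, edgeR), and Rps3a1 (0.63 ± 0.15, adjusted p = 0.0116, edgeR). Mitochondrial ribosomal protein genes, which serve the organelle's own ribosome, were called higher in 42 of 77 cases (median 0.45), among them Mrpl34 (0.87 ± 0.15, adjusted p = 0.00267, edgeR) and Mrps6 (0.62 ± 0.11, adjusted p = 0.00267, edgeR). Their summed share of counts was 0.166 to 0.211% in set 2 controls and 0.144 to 0.153% in set 1 controls.

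Elongation factors and other messenger RNAs with a 5′ terminal oligopyrimidine tract had 8 of 24 called higher (median 0.32), led by Eef1g, a subunit of elongation factor 1 (0.59 ± 0.10, adjusted p = 0.00291, edgeR), and the histone chaperone Nap1l1 (0.39 ± 0.08, adjusted p = 0.00457, edgeR). Initiation factors had 12 of 31 called higher (median 0.30), with Eif4g2 (0.38 ± 0.08, adjusted p = 0.00591, edgeR) and Eif3c (0.40 ± 0.09, adjusted p = 0.00817, edgeR) at the smallest p. Ribosome biogenesis genes had 7 of 32 called higher (median 0.27), with Rrn3, a cofactor of RNA polymerase I (0.42 ± 0.09, adjusted p = 0.00634, edgeR), and Nip7 (0.53 ± 0.11, adjusted p = 0.00718, edgeR) first. Genes of mTOR signalling had 1 of 18, Rheb, the small GTPase that activates mTOR complex 1 (0.41 ± 0.09, adjusted p = 0.0102, edgeR), and a median of -0.08; Rictor, a subunit of mTOR complex 2, did not pass (-0.34 ± 0.12, adjusted p = 0.0567, edgeR). No gene of any of these lists was called lower. Of the 11 marker lists, 3 lay apart between the control groups without overlap: those of the olfactory bulb, higher in set 2 (10 of 10 listed; 5175 to 5819 CPM in set 2 and 4512 to 4994 CPM in set 1 controls), and, lower in set 2, those of the choroid plexus (4 of 4 listed, none at 0 in all libraries; 2.41 to 4.93 CPM in set 2 and 7.63 to 10.4 CPM in set 1 controls) and the endothelium (5 of 5; 135 to 185 CPM in set 2 and 189.6 to 233 CPM in set 1 controls), and their part in the values above was not tested.

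The smallest unadjusted p of these lists at the high dose belonged to Rheb and to Ddit4, an inhibitor of mTOR complex 1, and neither passed the adjustment. Rheb averaged 87.6 ± 9.95 CPM in high-dose and 111 ± 10.2 CPM in set 2 control libraries (log2 fold change -0.34 ± 0.10, adjusted p = 0.181, edgeR). Ddit4 averaged 55.2 ± 14.02 CPM in high-dose and 38.5 ± 6.34 CPM in set 2 control libraries (log2 fold change 0.52 ± 0.16, adjusted p = 0.218, edgeR). Means are with SD over 3 libraries a group. Of the mitochondrial ribosomal protein genes, Mrpl47 had the smallest p, at 15.8 ± 0.736 CPM in high-dose and 19.9 ± 2.74 CPM in set 2 control libraries (log2 fold change -0.33 ± 0.12, adjusted p = 0.34, edgeR). Eif4a1, the helicase of cap-dependent initiation, averaged 51.6 ± 3.66 CPM in high-dose and 62.2 ± 3.81 CPM in set 2 control libraries (log2 fold change -0.27 ± 0.10, adjusted p = 0.367, edgeR). At the low dose the smallest p belonged to Mrpl27, at 12.7 ± 2.51 CPM in low-dose and 7.76 ± 2.199 CPM in set 1 control libraries (log2 fold change 0.71 ± 0.22, adjusted p = 1, edgeR), with 3 and 4 libraries.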

How the data were processed

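RNA from 13 mouse olfactory bulb samples was purified on RNeasy mini columns and sequenced after a TruSeq Stranded Total RNA preparation, per the labels' protocols. The authors deposited 1 table of whole-number read counts per gene and FPKM values (fragments scaled by gene length and library total) beside them. Reads were aligned with HISAT2 to mm10, per the submitters' processing notes. The counting program, its strand setting and its treatment of reads that match several genes are not given there. Members with near-identical copies or an overlapping gene on either strand are therefore uncertain. The lengths implied by the FPKM values, as deposited, differ from the union of GENCODE exons, so FPKM served to pick named genes and in 1 alternative.

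The deposited counts of all 34745 genes were fitted at once by edgeR 4.0.16 (R 4.3.3; TMM factors, the default filter on low counts, robust quasi-likelihood F test, 4 groups, 9 residual degrees of freedom). P-values were adjusted by Benjamini-Hochberg over the 17467 genes kept, and a gene was called at an adjusted p under 0.05. Each dose was compared with controls of its own set, the set 2 with the set 1 controls, and the 2 responses with each other. Standard errors were taken from the log2 fold change and its F value and are approximate. Groups came from the sample labels, and nothing there says that replicates came from separate animals, so the p-values reflect variation among these samples only, which may be technical. No 2 libraries agreed within sampling noise. In counts simulated at these depths, with 199 of 200 changed genes among 17298 tested, the high-dose comparison recovered 59.6% of genes changed by log2 1 and 89% changed by log2 2, with 8 false calls.

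Alternatives were DESeq2 1.42.0 size factors, library totals, TMM without the ribosomal protein genes, other filters, the DESeq2 Wald test, limma 3.58.1 on log2(FPKM + 1), a fit of the compared groups alone, the replicate number as a block and leaving out each library. Added after the data were seen were leaving out both deepest libraries, an offset for transcript length and summing members with their copies. Copies were found with BLAST+ 2.17.0 on GENCODE M21 coding sequences, using the transcript with the longest coding sequence of each gene. Members, gene lists and tests were chosen with earlier results of these data known. Named members are the 6 with the smallest p called in each direction (or 3 if none), the 5 highest and 5 lowest by FPKM, every member under the filter, the stalk genes, Rpsa, Rps6, the X-linked members and the paralogs ending in l with their partners, and 2 genes per other list. A few members are not reported by name here. Protein sequences and the sequences of 21 promoters are not used here.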

Additional observations from a re-analysis of the deposited data

How the results depend on the processing

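Named genes kept their direction and side of the threshold under most alternatives, but the count of calls between the control groups did not. Over all genes at the low dose, called as 0, DESeq2's Wald test called 19, limma on log2(FPKM + 1) 2, the separate fit 9, the fit without both deepest set 2 libraries 1, and leaving out single libraries 0 to 2. At the high dose, called as 112, a minimum of 1 CPM in every library gave 69, DESeq2 291, the separate fit 4 and single libraries left out 21 (without set 2 control replicate 3) to 138 (without set 2 control replicate 2). Between controls all genes called numbered 1340 to 4073 over the same exclusions, and members called higher 19 (without set 2 control replicate 2) to 50 (without set 2 control replicate 1). No member was called at either dose under any of the settings.

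With the length offset 29 members were called higher and 1 lower. That offset turned Rpl36a to -0.17 and Rpl9 to -0.15. Without both deepest libraries Rpl36a was -0.18. With no filter on low counts Rpl28 was 0.0047, and summed with its copies Rps27 was 0.57. Over single exclusions Rps27 ran from -0.46 to 0.0775, Rpl28 from -0.34 to 0.29, Rpl36a from -0.19 to 0.29, Rpl9 from -0.29 to 0.76 and Rpl11 from -0.0180 to 0.46 between controls, and Rps3 at the high dose from -0.0289 to 0.20. With ribosomal RNA carriers and mitochondrial genes left out of the total, the mean share rose in every group, since the total is smaller. It went from 0.401 to 0.423% in set 1 controls and from 0.409 to 0.432% in low-dose libraries. In set 2 it went from 0.563 to 0.597% in controls and from 0.557 to 0.593% in high-dose libraries. Calls between controls were lost outside single exclusions too. Rps4x, Rps6, Rps27l and Rplp2 were not called with the length offset. Rps4x, Rps6 and Rps27l were not called without both deepest libraries. Rps4x, Rps27l, Rpsa and Rpl8 were not called with the replicate number as a block. Rps4x was also not called with library totals or by limma, and Rps6 not in the separate fit. Causes of the shifts in calls and fold changes were not tested.

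With the replicate number as a replicate block, 24 members were called higher between controls, 1474 genes in all there, and 5 at the high dose. Same-numbered libraries did not deviate together: correlations of their deviations ran from -0.34 to 0.13, so the numbers were not taken to pair samples. Members under 10 CPM had a median SE of 0.25 against 0.14 above 50 CPM, so differences of low members were less detectable at this depth.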
